A study of Mus musculus with 8 samples.

Results

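The levels of 10 genes known as marks of smooth muscle and of pericytes were followed in cultured heart muscle cells of C57/Bl6 mouse embryos (age E12.5) that were treated with simvastatin or left as controls. The genes were Tagln, Cnn1, Myl9, Cald1, Myh11, Rgs5, Pdgfrb, Cspg4, Mcam and Tgfb1i1. They were listed by name, and all 10 were found among the 49315 Ensembl genes of the count tables. The actin genes, which belong to the same programme, are not described here.

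There were 4 libraries from cells given 10 µM simvastatin and 4 from control cells. Both groups came from hearts of embryos of the same strain and age, with male and female embryos pooled, and the labels name no transgene or mutation. The study's design text speaks of cardiomyocytes treated in culture and the extraction label of dissected hearts, and neither gives the time in simvastatin or the content of the control medium. Totals ran from 30474586 to 34993255 counts with simvastatin and from 31457872 to 35215640 counts in controls. The column headers name 2 sets, with replicates 1 and 3 of each group in set 1 and replicates 2 and 4 in set 2. Nothing in the labels says that replicates were separate cultures, so p-values measure the spread between these libraries, which may be technical. Heart muscle markers were abundant: the 10 on the list summed to between 49431 and 54940 CPM with simvastatin and between 43076 and 53902 CPM in controls. Levels are in CPM, the gene's count scaled to library size with edgeR's TMM factors, and 95% intervals of fold changes come from the same model as the tests.

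Smooth muscle cells contract when the light chain of myosin is phosphorylated and myosin pulls on actin filaments, and calponin, caldesmon and transgelin bind along those filaments. Many of these genes carry a CArG box, the DNA motif of serum response factor (SRF), whose coactivators myocardin and the MRTF proteins respond to the state of actin. Tagln is also known to be transcribed in the early embryonic heart muscle, before it becomes restricted to smooth muscle. Pericytes wrap capillaries and are recognised by the PDGF receptor beta, the NG2 proteoglycan (Cspg4), the adhesion molecule CD146 (Mcam) and Rgs5, none of which is found in pericytes alone. Simvastatin blocks the synthesis of mevalonate, a precursor of sterols and of the lipids that anchor many signalling proteins to membranes.

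The genes moved in both directions. Tagln, Cnn1, Myl9, Cald1, Myh11 and Pdgfrb fell, Cspg4 and Tgfb1i1 rose, and Rgs5 and Mcam did not pass the test. That is 6 of 10 lower, against 9.61% of the 16126 genes tested, and 2 of 10 higher, against 7.79% of those genes (edgeR's quasi-likelihood F test, with p adjusted by Benjamini-Hochberg at 0.05). In both directions together 8 of 10 passed, against 17.4% of genes. Tagln, Myh11 and Pdgfrb fell at least 2-fold, 3 of 10, against 4.99% of genes. All 10 passed the filter on low counts. Within set 1 alone 5 fell (5.91% of 16565 genes) and within set 2 alone 5 fell (11.5% of 16233 genes). The median log2 fold change of the 10 was -0.81, or -0.86 in set 1 and -0.45 in set 2, while the median over all genes tested was 0.01. Libraries of the groups did not overlap for 8 of the 10 genes, against 23.1% of all genes tested in either direction, and 6 of these were lower, against 12.1%. In bulk libraries such as these, fewer cells of a type and less RNA per cell cannot be told apart.

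**Figure D1:**
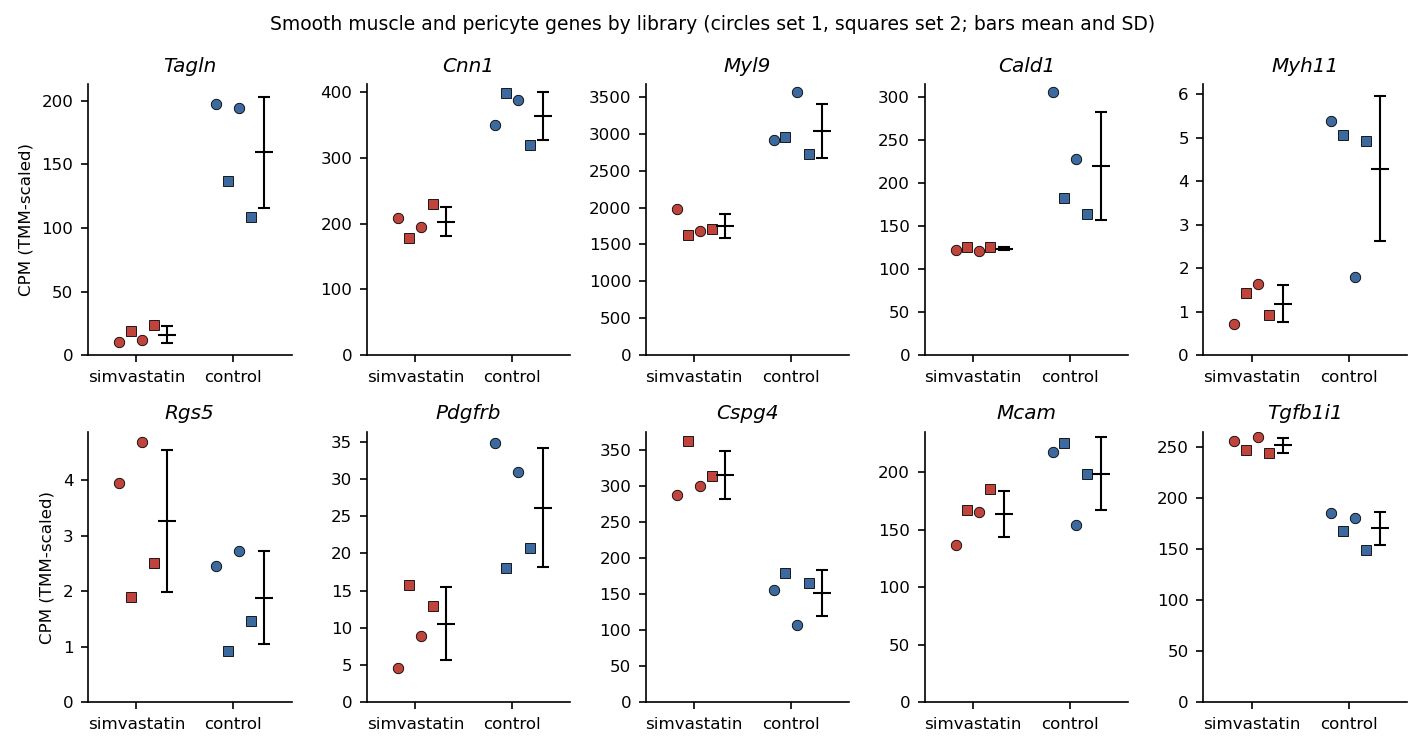
CPM (y axis, from 0) of each of the 10 genes in each library, simvastatin left of control; circles are set 1, squares set 2, and bars give the mean and SD of 4 libraries. Simvastatin libraries lie below all controls for Tagln, Cnn1, Myl9, Cald1, Myh11 and Pdgfrb and above all controls for Cspg4 and Tgfb1i1.

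Levels can be compared between genes only per length, here as RPKM, the CPM divided by the exonic length in kilobases that the files give. Myl9 stood far above the rest in both groups, at 1507 ± 136 RPKM with simvastatin and 2617 ± 315 RPKM in controls (SD, n = 4 each). By mean CPM in controls, which takes no account of length, it was number 25 of all genes tested. With simvastatin Cnn1 came next at 74.0 RPKM, followed by Mcam at 48.9, Tgfb1i1 at 45.1, Cspg4 at 26.4, Cald1 at 10.3, Tagln at 8.14, Pdgfrb at 1.93, Rgs5 at 0.716 and Myh11 at 0.178 RPKM. The neighbours whose ranges overlapped in that order were Mcam and Tgfb1i1, Cald1 and Tagln, and Pdgfrb and Rgs5. In controls the order was Cnn1 at 132.9 RPKM, Tagln at 80.1, Mcam at 59.2, Tgfb1i1 at 30.6, Cald1 at 18.3, Cspg4 at 12.7, Pdgfrb at 4.78, Myh11 at 0.647 and Rgs5 at 0.415 RPKM. There the ranges of Tagln and Mcam, of Cald1 and Cspg4, and of Myh11 and Rgs5 overlapped. Tagln was thus number 7 of the 10 with simvastatin and number 3 in controls, and Cspg4 number 5 with simvastatin and number 7 in controls.

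Tagln, which encodes transgelin (SM22 alpha), an actin-binding protein of smooth muscle (chromosome 9, 45929619 to 45936058, GRCm38), fell most. It stood at 10.1, 18.8, 11.9 and 23.9 CPM in simvastatin replicates 1 to 4, and at 198, 137, 194 and 108 CPM in control replicates 1 to 4. Every simvastatin library was far below every control, and the mean of 16.2 ± 6.35 CPM with simvastatin was 10.2% of the control mean of 159 ± 43.8 CPM (SD, n = 4 each). The log2 fold change was -3.30 ± 0.30 (SE; 95% interval -3.96 to -2.63; edgeR adjusted p = 6.43e-05), which ranked 32 from the lowest of the 16126 genes. Within set 1 it was -4.17 and within set 2 -2.53. The difference between the sets was 1.63 ± 0.23 on the log2 scale (SE), with an unadjusted p of 5.34e-05 and an adjusted p of 0.0601 in edgeR's test of treatment by set.

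How reads of Tagln were assigned depends on the strand setting of the counting, which no label or header states. Of its 1988 exonic bases, 1241 (62.4%) are also exonic in Gm48529, a predicted gene on the opposite strand, and 108 (5.4%) in Pcsk7. Gm48529, looked at because of this overlap, stood at 0.977, 1.67, 1.13 and 1.35 CPM in simvastatin replicates 1 to 4 and at 8.26, 6.24, 5.49 and 4.50 CPM in the controls (log2 fold change -2.25 ± 0.25, edgeR adjusted p = 0.000217). It moved in the same direction as Tagln, without overlap between groups, and reads of the pair cannot be told apart without strand. Pcsk7, a protease of the secretory pathway, averaged 52.4 ± 5.91 CPM with simvastatin and 47.7 ± 4.81 CPM in controls (SD, n = 4 each; log2 fold change 0.14, edgeR adjusted p = 0.505). How many Tagln reads in shared exons were left uncounted was not tested, so its level per length is uncertain.

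Cnn1, calponin 1, an actin-binding inhibitor of the myosin ATPase (chromosome 9, 22099216 to 22109630), fell moderately. It stood at 208, 177, 195 and 229 CPM in simvastatin replicates 1 to 4, against 350, 398, 388 and 319 CPM in control replicates 1 to 4. The groups were apart in both sets, with means of 203 ± 22.0 CPM with simvastatin and 364 ± 36.4 CPM in controls (SD, n = 4 each). On the log2 scale the change was -0.84 ± 0.11 (SE; adjusted p = 0.000464 by edgeR), with -0.89 in set 1 and -0.82 in set 2.

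Cald1 encodes caldesmon, which links actin, myosin and calmodulin and is made in a long smooth muscle form and a short form of other cells (chromosome 6, 34598500 to 34775473). The counts are per gene and do not separate these forms. It stood at 122, 126, 122 and 126 CPM in simvastatin replicates 1 to 4, against 306, 183, 228 and 164 CPM in control replicates 1 to 4. The simvastatin libraries were nearly alike (124 ± 2.12 CPM), whereas the controls were spread (220 ± 62.9 CPM; SD, n = 4 each), with both set 1 controls above both set 2 controls. On the log2 scale the change was -0.83 ± 0.17 (SE; adjusted p = 0.00704 by edgeR), or -1.14 in set 1 and -0.47 in set 2. The difference between sets had an unadjusted p of 0.00941 and an adjusted p of 0.205 (edgeR).

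Myl9, the regulatory light chain of smooth muscle and non-muscle myosin (chromosome 2, 156775420 to 156781658), fell from a level above that of the other 9. It had 1984, 1632, 1680 and 1709 CPM in simvastatin replicates 1 to 4 and 2912, 2957, 3569 and 2725 CPM in control replicates 1 to 4. The lowest control was above the highest simvastatin library. Means were 1751 ± 158 CPM with simvastatin and 3041 ± 366 CPM in controls (SD, n = 4 each), a log2 change of -0.80 ± 0.11 (SE; adjusted p = 0.000677 by edgeR), with -0.84 in set 1 and -0.77 in set 2. Myl9 shares sequence with Myl12a and Myl12b. How reads that match more than 1 of them were counted is not stated in the labels and was not tested.

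Myh11, the smooth muscle myosin heavy chain (chromosome 16, 14194527 to 14291408), was low in both groups and fell. It had 23, 50, 51 and 28 counts in simvastatin replicates 1 to 4 and 189, 171, 63 and 152 counts in control replicates 1 to 4. In CPM these were 0.725, 1.44, 1.64 and 0.922 with simvastatin and 5.38, 5.06, 1.80 and 4.92 in controls. Control replicate 3 was lower than the other 3 controls and only just above the highest simvastatin library. The log2 fold change was -1.85 ± 0.38 (SE; 95% interval -2.70 to -1.01; edgeR adjusted p = 0.00711). It was -2.07 in set 2, and -1.61 in set 1, where control replicate 3 belongs and where the adjusted p was 0.175.

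Promoter windows are shown because 3 of the falling contractile genes and 1 rising gene are in RefSeq's table for GRCm38.p6 and differ in whether they hold the motif of SRF. Tagln, Myh11 and Pdgfrb, which fell most, and Tgfb1i1 had no window there and were not searched. Of the 10 genes, 6 had a window of 250 bases before to 50 bases after a start site, and Cald1 had 2. Each was searched for the CArG box, for a CArG box with 1 mismatch in its outer bases, and for GGAATG, the core of the TEAD motif, on both strands. Matches are in capitals.
Myl9, chr2:156775214-156775513, + strand: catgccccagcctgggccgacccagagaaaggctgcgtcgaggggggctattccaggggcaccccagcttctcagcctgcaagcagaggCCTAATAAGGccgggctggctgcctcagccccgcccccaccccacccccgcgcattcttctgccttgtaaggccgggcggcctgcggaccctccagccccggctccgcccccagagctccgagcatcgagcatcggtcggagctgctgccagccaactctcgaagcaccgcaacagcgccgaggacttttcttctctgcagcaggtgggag
Cald1, chr6:34598254-34598553, + strand: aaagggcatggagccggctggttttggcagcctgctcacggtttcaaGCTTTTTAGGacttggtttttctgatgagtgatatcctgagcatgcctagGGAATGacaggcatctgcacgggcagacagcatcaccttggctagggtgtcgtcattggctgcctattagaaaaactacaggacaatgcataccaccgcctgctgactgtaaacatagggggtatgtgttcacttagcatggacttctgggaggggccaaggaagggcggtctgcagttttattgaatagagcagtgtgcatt
Cnn1, chr9:22099003-22099302, + strand: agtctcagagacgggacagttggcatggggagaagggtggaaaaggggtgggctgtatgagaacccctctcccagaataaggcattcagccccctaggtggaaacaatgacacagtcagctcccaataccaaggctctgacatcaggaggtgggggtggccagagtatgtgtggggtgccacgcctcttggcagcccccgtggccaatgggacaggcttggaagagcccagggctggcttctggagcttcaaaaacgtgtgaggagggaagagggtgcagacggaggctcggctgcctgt
Cspg4, chr9:56864854-56865153, + strand: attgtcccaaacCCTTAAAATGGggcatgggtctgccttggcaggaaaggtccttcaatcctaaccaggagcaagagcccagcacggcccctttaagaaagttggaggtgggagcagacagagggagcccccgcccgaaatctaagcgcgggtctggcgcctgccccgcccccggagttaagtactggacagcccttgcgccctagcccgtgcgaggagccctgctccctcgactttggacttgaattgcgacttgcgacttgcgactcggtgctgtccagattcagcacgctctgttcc
Myl9 held a CArG box that begins at position -161 from the start site, a motif found in 1.63% of 32851 windows of this length. The upstream Cald1 window held GGAATG at -153 and a CArG box with 1 mismatch at -203, and the Cspg4 window held 2 overlapping CArG boxes with 1 mismatch, at -238 and -237. Of all windows, 12.6% held a CArG box with 1 mismatch and 14.7% held GGAATG. These letters were not in the windows of Cnn1, of the second Cald1 start, of Rgs5 or of Mcam. A match describes letters in the window and no binding was measured.

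Tgfb1i1, Hic-5, a LIM domain adaptor of focal adhesions related to paxillin (chromosome 7, 128246812 to 128255699), rose. It stood at 257, 247, 260 and 245 CPM in simvastatin replicates 1 to 4, against 185, 168, 180 and 149 CPM in control replicates 1 to 4. The groups did not overlap, and the spread was small: 252 ± 7.19 CPM with simvastatin and 171 ± 16.2 CPM in controls (SD, n = 4 each). On the log2 scale the change was 0.56 ± 0.09 (SE; adjusted p = 0.0018 by edgeR), with 0.48 in set 1 (adjusted p = 0.063 in that set alone) and 0.63 in set 2.

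**Figure D2:**
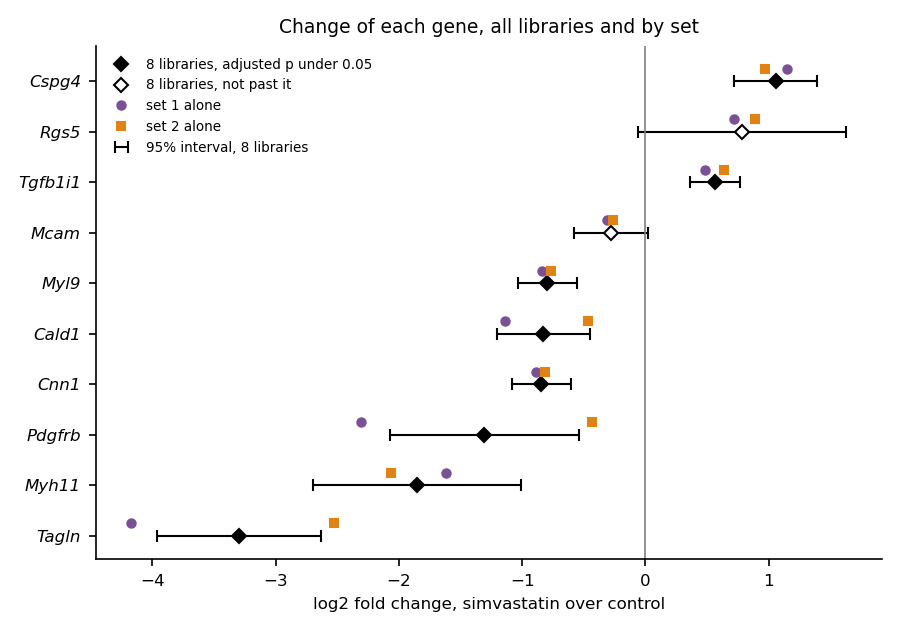
Log2 fold change of simvastatin over control (x axis) for each of the 10 genes; diamonds and bars are the fit of 8 libraries with its 95% interval, filled where the adjusted p was under 0.05, circles are set 1 alone and squares set 2 alone. Tagln lies lowest at -3.30 and Cspg4 highest at 1.06, and the sets lie farthest apart for Pdgfrb and Tagln.

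Among the pericyte genes, Pdgfrb fell and Cspg4 rose. Pdgfrb is the receptor that pericytes use to follow PDGF-B from vessels, and fibroblasts also make it (chromosome 18, 61045150 to 61085061). It stood at 4.57, 15.8, 8.97 and 12.9 CPM in simvastatin replicates 1 to 4, against 34.8, 18.1, 31.0 and 20.7 CPM in control replicates 1 to 4. The groups did not overlap, yet in set 2 they were close, at 12.9 to 15.8 CPM with simvastatin and 18.1 to 20.7 CPM in controls. The log2 fold change was -1.31 ± 0.35 (SE; 95% interval -2.07 to -0.54; edgeR adjusted p = 0.0251), with -2.30 in set 1 (adjusted p = 0.00966) and -0.43 in set 2 (adjusted p = 0.0934). The difference between sets was 1.85 ± 0.39 on the log2 scale, with an unadjusted p of 0.000959 and an adjusted p of 0.0899 (edgeR). The call ended without simvastatin replicate 3 (adjusted p = 0.0689), without control replicate 1 (adjusted p = 0.0591) and without control replicate 3 (adjusted p = 0.0645), all of them libraries of set 1. It held without simvastatin replicate 1, the remaining library of set 1 (edgeR adjusted p = 0.0297).

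Cspg4, the NG2 proteoglycan of pericytes and of immature muscle and glial cells (chromosome 9, 56865033 to 56899870), had the largest rise of the 10. It stood at 287, 362, 299 and 313 CPM in simvastatin replicates 1 to 4, against 155, 179, 107 and 166 CPM in control replicates 1 to 4. Each simvastatin library was above each control in both sets. Means were 315 ± 33.0 CPM with simvastatin and 152 ± 31.6 CPM in controls (SD, n = 4 each), a log2 change of 1.06 ± 0.15 (SE; adjusted p = 0.000996 by edgeR), with 1.15 in set 1 and 0.97 in set 2.

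Mcam, CD146, an adhesion molecule of vessel walls (chromosome 9, 44134469 to 44142727), did not pass the test. It stood at 137, 167, 165 and 186 CPM in simvastatin replicates 1 to 4, against 217, 225, 154 and 198 CPM in control replicates 1 to 4. The groups overlapped through control replicate 3. The log2 fold change was -0.28 ± 0.14 (SE; 95% interval -0.58 to 0.02; edgeR adjusted p = 0.204), and without control replicate 3 the adjusted p was 0.0528.

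Rgs5, which shortens signalling by G proteins and marks pericytes in many tissues (chromosome 1, 169655501 to 169695813), was low. It had 125, 66, 145 and 76 counts in simvastatin replicates 1 to 4, against 86, 31, 95 and 45 counts in control replicates 1 to 4. In CPM these were 1.90 to 4.68 with simvastatin and 0.917 to 2.72 in controls. Set 1 libraries were above set 2 libraries in each group, so the groups overlapped when pooled and not within a set. The log2 fold change was 0.78 ± 0.38 (SE; 95% interval -0.06 to 1.63; edgeR adjusted p = 0.205), while with set as a term it was 0.81 and passed (edgeR adjusted p = 0.0244).

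No gene of the 10 passed the test of a treatment effect that differs between sets (0 in edgeR and 0 in limma-voom; 3 had an unadjusted p under 0.05 in edgeR: Tagln, Pdgfrb and Cald1). Over all genes 0.0558% passed, and 1850 of 16126 had an unadjusted p under 0.05 in edgeR. Without control replicate 3, where 7.42% of all genes passed (1213 of 16355), so did these 3, with edgeR adjusted p of 0.000607 for Tagln, 0.00622 for Pdgfrb and 0.00446 for Cald1. Without control replicate 1, where 1.94% of all genes passed (316 of 16278), Tagln and Pdgfrb passed with edgeR adjusted p of 0.00493 and 0.0335. Both are set 1 controls.

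Markers of fibroblasts also differed between the sets. Of 8 on that list, Pdgfra, Tcf21 and Col3a1 fell (9.61% over all genes) and 0 passed as higher (7.79% over all genes). The list's median log2 change was -0.50, or -1.14 in set 1 and 0.12 in set 2. Their summed level was between 1236 and 1440 CPM with simvastatin, and in controls it was 2310 and 2541 CPM in replicates 1 and 3 (set 1) and 1154 and 1145 CPM in replicates 2 and 4 (set 2). None of the 8 was at 0 in any library, and the lowest was Tcf21, at 4.51 CPM with simvastatin and 11.8 CPM in controls. The controls of set 1 were also the highest for Pdgfrb, Tagln and Cald1, and not for Cnn1. The part of fibroblast abundance in these results was not tested. In set 2, which holds only replicates 2 and 4 of each group, the markers did not move together, and 1 marker of the list is not reported here. Col1a2 had a log2 fold change of 0.50, Dcn 0.91 and Lum 0.71, while Pdgfra had -0.20, Tcf21 -0.17, Col3a1 -0.07 and Postn -0.03. In that set Tagln had -2.53, Myh11 -2.07, Cnn1 -0.82, Myl9 -0.77 and Cald1 -0.47, which passed in the set alone, and Pdgfrb -0.43, which did not (edgeR adjusted p = 0.0934). How these changes relate to those of the fibroblast markers was not tested.

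**Figure D3:**
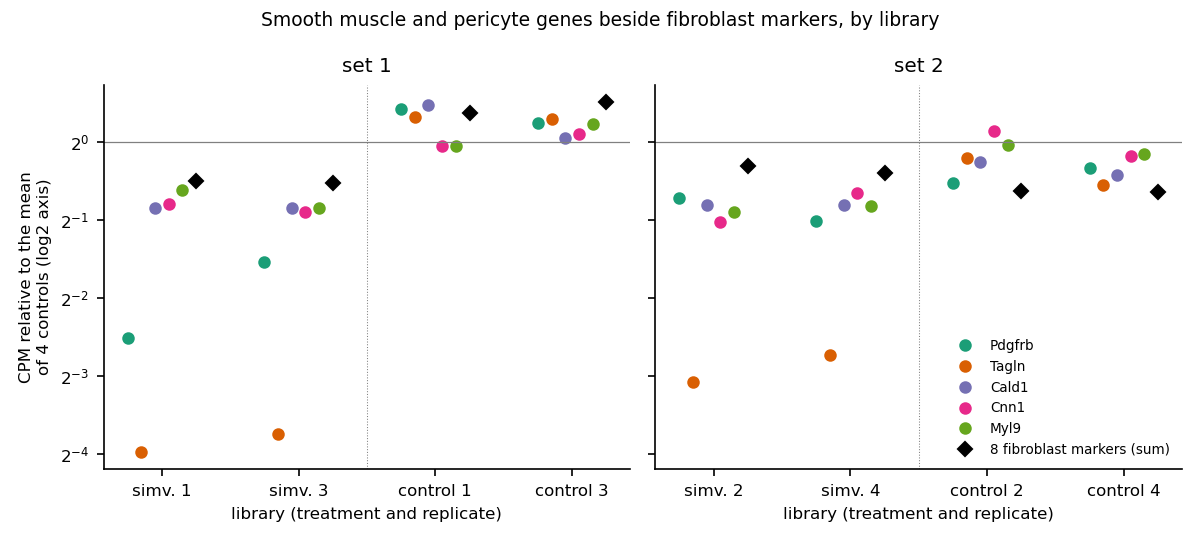
Level in each library relative to the mean of the 4 controls (log2 y axis), set 1 on the left and set 2 on the right, with simvastatin left of control in each panel; circles are single genes, and black diamonds the summed CPM of 8 fibroblast markers. In set 1 the diamonds are lower with simvastatin than in controls and in set 2 they are higher, while Tagln is lowest with simvastatin in both.

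Other pericyte genes moved both ways, and most were low. Of 11 listed, 8 were tested, of which 3 fell (9.61% over all genes) and 1 rose (7.79% over all genes). The list's median log2 change was -0.28 (0.01 over all genes). Heyl, a target of Notch in mural cells, averaged 1.22 ± 0.312 CPM with simvastatin and 4.18 ± 0.813 CPM in controls (SD, n = 4 each; log2 fold change -1.78, edgeR adjusted p = 0.000723). Foxs1, a forkhead factor of mural cells, fell by 1.43 on the log2 scale, with -1.96 in set 1 and -0.61 in set 2, where it did not pass (edgeR adjusted p = 0.157). Cox4i2, a respiratory chain subunit of mural cells, fell by 1.84, although its groups overlapped, at 1.04 to 4.44 CPM with simvastatin and 4.21 to 16.8 CPM in controls. Anpep, the peptidase CD13, rose by 2.18 (edgeR adjusted p = 0.0155), although its groups overlapped, at 1.94 to 9.16 CPM with simvastatin and 0.541 to 2.01 CPM in controls. Its change was 2.83 in set 1 and 1.22 in set 2, where it did not pass (edgeR adjusted p = 0.148). Notch3, the receptor of vascular smooth muscle and pericytes, averaged 0.881 CPM with simvastatin and 1.53 CPM in controls (log2 fold change -0.79, edgeR adjusted p = 0.0938). Kcnj8, a potassium channel subunit that marks pericytes, did not reach the filter, with 2, 4, 7 and 4 counts in simvastatin replicates 1 to 4 and 34, 8, 42 and 10 counts in control replicates 1 to 4. Vtn and Higd1b, further pericyte markers, had at most 2 counts in any library. Abcc9, a potassium channel regulator that heart muscle also makes, was the highest of the list, at 137 CPM with simvastatin and 116 CPM in controls (log2 fold change 0.25, edgeR adjusted p = 0.598). Angpt1, a ligand of the Tie2 receptor, averaged 33.3 CPM with simvastatin and 21.9 CPM in controls (log2 fold change 0.60, edgeR adjusted p = 0.0854), and Ndufa4l2, a mitochondrial protein, 16.4 CPM with simvastatin and 14.0 CPM in controls (log2 fold change 0.22, edgeR adjusted p = 0.885). The levels of the 11 genes thus ran from at or near 0 for Vtn and Higd1b to a mean above 100 CPM in each group for Abcc9.

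Of the 16 other contractile and cytoskeletal genes of smooth muscle, 7 fell (9.61% over all genes) and 0 rose (7.79% over all genes), and the list's median log2 change was -0.55. Fblim1, migfilin, which ties filamin to focal adhesions, averaged 71.4 ± 8.51 CPM with simvastatin and 142.7 ± 14.6 CPM in controls (SD, n = 4 each; 95% interval of the log2 fold change -1.25 to -0.75, edgeR adjusted p = 0.000232). Lmod1, the leiomodin of smooth muscle that seeds actin filaments, had 1 to 7 counts per library with simvastatin and 41 to 84 counts in controls. Its log2 fold change was -3.87 ± 0.47 (SE, edgeR adjusted p = 0.000333). Smtn, smoothelin, fell with -0.76 and Actn1, the widely expressed alpha-actinin, with -1.05. Des, desmin, which heart muscle also makes, had a log2 fold change of 0.27 (edgeR adjusted p = 0.11), and Tpm1, likewise shared with heart muscle, -0.22 (edgeR adjusted p = 0.163).

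Several widely expressed relatives of the 10 genes fell as well. Of 15 such paralogues 5 fell (9.61% over all genes) and 2 rose (7.79% over all genes), and the list's median log2 change was -0.36. Tagln2 averaged 182 ± 22.9 CPM with simvastatin and 401 ± 119 CPM in controls (SD, n = 4 each; log2 fold change -1.14, edgeR adjusted p = 0.00242). Cnn2, the calponin of non-muscle cells, had -0.85, Myh9, a heavy chain of non-muscle myosin, -1.12 and Myl12a, a light chain of non-muscle myosin, -0.65.

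Ratios within a library compare each gene with its relative independently of the scaling between libraries. Tagln over Tagln2, as log2 of counts per kilobase, was -4.03, -3.15, -3.72 and -3.11 in simvastatin replicates 1 to 4 and -1.39, -1.22, -1.14 and -1.28 in control replicates 1 to 4. The ratio was lower in each simvastatin library, with a mean difference of -2.24. Cnn1 over Cnn2 was -0.91 ± 0.16 with simvastatin and -0.90 ± 0.22 in controls (SD, n = 4 each; exact permutation p = 0.943), but its difference was 0.20 in set 1 and -0.23 in set 2. Cnn1 over Cnn3 was lower with simvastatin, at -0.68 ± 0.24 against -0.16 ± 0.17 in controls, and Myl9 over Myl6 too, at 1.30 ± 0.10 against 1.76 ± 0.16 in controls (SD, n = 4 each). Myl9 over Myl12a was 3.26 ± 0.24 with simvastatin and 3.41 ± 0.08 in controls (SD, exact permutation p = 0.257). Myh11 over Myh9 was -3.55 ± 0.44 with simvastatin and -2.94 ± 0.98 in controls (SD, exact permutation p = 0.343). Both of these pairs overlapped between groups. Of 9 pairs, Tagln over Tagln2, Cnn1 over Cnn3, Myh11 over Myh10, Myl9 over Myl6 and Tgfb1i1 over Pxn did not overlap between groups. Each of those 5 had an exact permutation p of 0.0286 (two-sided), the smallest that 4 against 4 libraries can give, and an adjusted p of 0.0514 over the 9 pairs. So 0 of 9 passed, with 5 at an unadjusted p under 0.05, and a miss does not show that the ratios were equal. For Myh11 over Myh10 the groups were barely apart, at -5.79 in simvastatin replicate 3 and -5.75 in control replicate 3. With 5 counts per kilobase added in place of 0.5, its difference went from -1.30 to -0.78 (exact permutation, adjusted p = 0.103). Pdgfrb over Pdgfra was 0.73 ± 0.34 with simvastatin and 0.94 ± 0.30 in controls (SD, n = 4 each; exact permutation p = 0.4).

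**Figure D4:**
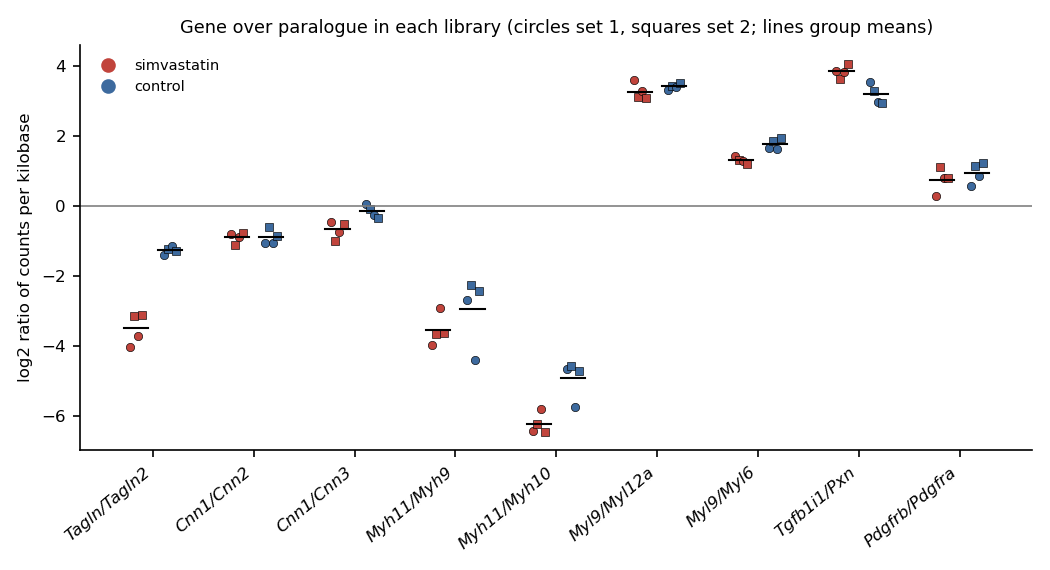
Log2 ratio of counts per kilobase (y axis) of each gene over a paralogue in each library, simvastatin left of control; circles are set 1, squares set 2, and lines the group means. Tagln over Tagln2 differs most, with means of -3.50 with simvastatin and -1.26 in controls, and Cnn1 over Cnn2 is the pair with the closest means.

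Among 11 transcriptional regulators of smooth muscle genes, 2 rose (7.79% over all genes) and 1 fell (9.61% over all genes). The list's median log2 change was 0.03. Myocd, myocardin, the coactivator of SRF in heart and smooth muscle, averaged 179 ± 40.3 CPM with simvastatin and 196 ± 52.0 CPM in controls (SD, n = 4 each; log2 fold change -0.13, edgeR adjusted p = 0.755). Srf itself had -0.64 (edgeR adjusted p = 0.0816). Mrtfa, the actin-sensing coactivator, fell with -0.59 (edgeR adjusted p = 0.0442), and Mrtfb had 0.20 (edgeR adjusted p = 0.232). Klf4, a zinc finger factor known to repress smooth muscle genes, rose with 2.44, at 22.6 ± 8.62 CPM with simvastatin and 4.15 ± 1.69 CPM in controls. Gata6 rose with 0.67.

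Of 10 genes that set the phosphorylation of myosin light chain, 1 rose and 1 fell, shares close to the 7.79% and 9.61% of all genes. Ppp1r14a, CPI-17, an inhibitor of myosin phosphatase in smooth muscle, had 6 to 13 counts per library with simvastatin and 36 to 121 counts in controls (log2 fold change -2.82 ± 0.44, edgeR adjusted p = 0.0014). Mylk, the light chain kinase, averaged 5.22 CPM with simvastatin and 5.51 CPM in controls (log2 fold change -0.08, edgeR adjusted p = 0.851). Among the PDGF ligands and Pdgfra, which is also on the paralogue and fibroblast lists, 3 of 5 fell (9.61% over all genes) and 0 rose. Pdgfd, a ligand of the beta receptor, fell with -1.22, Pdgfc with -0.61 and Pdgfra with -1.29, while Pdgfb had -0.15 (edgeR adjusted p = 0.736).

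**Figure D5:**
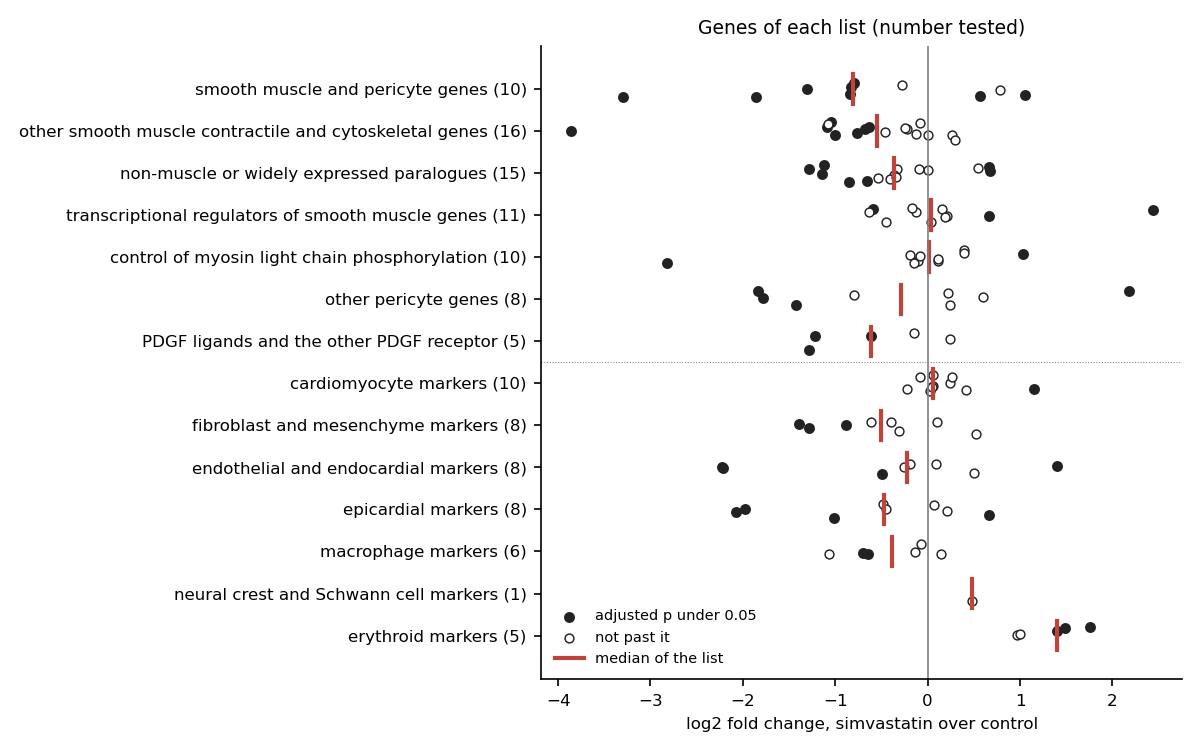
Log2 fold change of simvastatin over control (x axis) for the tested genes of each list, with the number tested in brackets; filled points had an adjusted p under 0.05, and the red line is the list's median. The smooth muscle and pericyte genes have a median of -0.81, and cardiomyocyte markers one of 0.06.

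Markers of other cell types that such a culture could hold moved in several directions, and their part in the results above was not tested. Over all genes tested, 7.79% rose and 9.61% fell, the shares to set beside the counts that follow. Of 10 cardiomyocyte markers Myh7, a myosin heavy chain, rose by 1.15 on the log2 scale and 0 fell in the fit of all libraries. Among those not called, the sets disagreed for Nkx2-5, with 1.64 in set 1 (edgeR adjusted p = 0.123) and -1.73 in set 2 (edgeR adjusted p = 0.000918). Its difference between sets did not pass (edgeR adjusted p = 0.0788). Of 8 endothelial and endocardial markers 1 rose and 3 fell, with sums of 252 to 317 CPM with simvastatin and 293 to 389 CPM in controls. Of 8 epicardial markers 1 rose and 3 fell, with sums of 319 to 346 CPM with simvastatin and 264 to 409 CPM in controls. The genes that passed were, as log2 fold changes, Emcn (-2.23), Npr3 (-2.22), Eng (-0.50) and Tek (1.40) of the endothelial list, and Wt1 (-1.98), Lrrn4 (-2.07), Aldh1a2 (-1.02) and Msln (0.67) of the epicardial list. Of 6 macrophage markers 0 rose and 2 fell, Cd68 and Adgre1, with sums of 299 to 392 CPM with simvastatin and 343 to 434 CPM in controls. Of 7 erythroid markers 5 were tested and Hbb-y, Hba-a2 and Hbb-bt rose, 3 in all, with sums of 14.7 to 33.0 CPM with simvastatin and 7.16 to 10.96 CPM in controls. Of 5 neural crest and Schwann cell markers 1 was tested and did not pass, Foxd3 had 0 counts in every library, and the sums were 3.81 to 5.32 CPM with simvastatin and 2.56 to 4.29 CPM in controls.

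The profiles of the 10 genes over the 8 libraries were compared with each other and with 9904 further genes. The measure was the root mean square difference of log2 CPM, with 0.5 CPM added, after centring each gene on its mean. The further genes had a mean of at least 5 CPM over the 8 libraries, which a gene could reach through a single group. Within the group, Cnn1 and Myl9 were each other's nearest, at 0.13 log2 units, and the nearest to Tagln was Pdgfrb, at 1.01. Outside it, the genes nearest to Tagln were Mogat2 (0.23), Edn1 (0.28) and Col8a1 (0.39). Mogat2 averaged 0.938 CPM with simvastatin and 15.2 CPM in controls, and Edn1 2.84 CPM with simvastatin and 21.6 CPM in controls. Both thus reached the filter through the controls. In edgeR the log2 fold change of Mogat2 was -4.01, against -3.30 for Tagln, and the added 0.5 CPM brought the profiles closer. The genes nearest to Cnn1 were Slc2a3, Mthfd1l and Rfc3 (0.06 to 0.08), and those nearest to Myl9 were Pfkl, Sh3bp1 and Lsp1 (0.06 to 0.07). For Cald1 they were Irak2, Cdca4 and Lima1 (0.10 to 0.11), and for Myh11 Stil, Wdhd1 and Aspm (0.25 to 0.30). For Pdgfrb they were Sulf1 (0.20), Steap2 (0.22) and Tcf21 (0.24), the last also on the fibroblast list. Tcf21 averaged 4.51 CPM with simvastatin and 11.8 CPM in controls, so it too reached the filter through the controls. The measure includes the treatment difference, so genes of like fold change lie near each other, and it does not show a shared cell type. Cspg4 was nearest to Mblac2, Dgka and Cdc14b (0.13 to 0.14), Tgfb1i1 to Ric8a, Ddah2 and Shisa5 (0.06 to 0.07), Rgs5 to Hs3st1, Hba-a1 and Tmem163 (0.21 to 0.23), and Mcam to Zfp275, Ttc9c and Tmem38b (0.05 to 0.06). Hba-a1 reached the filter through the simvastatin libraries, at 8.45 CPM with simvastatin and 4.32 CPM in controls.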

How the data were processed

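The deposited values are raw counts per Ensembl gene, 1 table per library, for 4 simvastatin and 4 control libraries grouped by title. Trimmomatic 0.36, STAR 2.5.2b, Subread 1.5.2 and featureCounts, with builds GRCm38 and mm10, are named in the submitters' processing notes, which state no roles. No label or header gives the strand setting or annotation release. A reference table of gene names gave symbols for 99.3% of identifiers. Totals ran from 30474586 to 35215640 counts, and none of the 12 pairs within a group agreed within sampling noise.

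Genes kept by filterByExpr (16126 of 32927 with any count) were tested with edgeR 4.0.16 (R 4.3.3): TMM scaling, quasi-likelihood F test, treatment as the only term, two-sided, Benjamini-Hochberg adjustment over all genes tested at 0.05. Treatment by set was a separate fit with an interaction term. The edgeR step was run on simulated counts with a single common dispersion and no effect of set. That run checked the code and does not show how the test behaves on these data. Ratios used counts per kilobase plus 0.5 and exact permutation tests (Python 3.11.15). Alternatives included DESeq2 1.42.0 and limma-voom (limma 3.58.1). The genes, lists and tests were chosen with earlier results of these data known. The rule for naming took all 10 genes, from each list up to 4 genes past the threshold, by smallest p, 7 fixed genes (Myocd, Srf, Mrtfa, Mrtfb, Notch3, Kcnj8, Tagln2) and the 3 nearest profiles of each gene among genes of at least 5 CPM. Abcc9, Angpt1, Ndufa4l2, Col1a2, Dcn, Lum, Postn, Nkx2-5, Des, Tpm1, Mylk, Pdgfb, Vtn, Higd1b, Foxd3, Gm48529 and Pcsk7 were named beyond it, after their values were seen, and Cnn3, Myl6, Myl12b, Myh10 and Pxn as paralogues. No label says that replicate numbers pair libraries. Same-numbered deviations correlated from -0.21 to 0.16, which cannot show whether the cultures were paired. A gene of the myosin phosphorylation list that the rule took is not reported here.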

Additional observations from a re-analysis of the deposited data

Results flagged for a closer look

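In control replicate 3, Myh11 stood at 1.80 CPM against 4.92 to 5.38 CPM in the other controls, a gap larger than 4 values usually show. The same library's Myh11 over Myh10 ratio was -5.75 on the log2 scale against -4.70 to -4.57 in the other controls. Chance marks about 1 in 20 such groups, and 52 groups of 4 were examined.

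The response of 3 fibroblast markers differed between sets by edgeR's test of treatment by set. Set 2 minus set 1 was 1.38 for Col1a2 (edgeR adjusted p = 0.0351), 1.52 for Col3a1 (edgeR adjusted p = 0.0277) and 2.44 for Tcf21 (edgeR adjusted p = 0.0351), each as log2.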

How the results depend on the processing

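Over 19 alternatives, the number of the 10 genes that fell stayed at 5 or 6 (5 to 6 without 1 library) and the number that rose ran from 1 to 3 (2 without any 1 library). Tagln, Cnn1, Myl9, Cald1 and Cspg4 kept their direction and their side of the threshold under all 19, and so did Mcam, which did not pass. In set 1 alone, 1627 genes changed in all and 1 of the 10 rose. Over all genes, 2002 to 2462 changed without 1 library. With the replicate block, 2131 genes changed, 5 of the 10 fell and 3 rose. Rgs5 passed (edgeR adjusted p = 0.0395) and Pdgfrb did not (edgeR adjusted p = 0.0792). No label pairs the libraries by number, and 0 of 4 simvastatin libraries correlated best with the control of their own number. Whether the cultures were paired cannot be told from this. The count of genes whose response differed between sets was 0 to 3 without 1 library. The count of ratios that passed stayed at 0 in all 11 alternatives, although the smallest p these designs allow is 0.0286 without 1 library and 0.125 when paired by number. The difference in log2 Cnn1 over Cnn2 ran from -0.0704 to 0.0881 without 1 library, and its sign turned without simvastatin replicate 2 (0.06), control replicate 2 (0.0881) and control replicate 4 (0.0037); the cause was not tested. Depth limits Myh11, Rgs5, Lmod1, Ppp1r14a and Kcnj8.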
